A study of Homo sapiens with 31 samples.

Results

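In MUTZ3 cells, 757 EVI1 binding sites never carried a CTBP2 peak, and they are described here by position, sequence, strength and behaviour in other lists. A site was a merged interval with an EVI1 peak in both untreated libraries of the inducible 4xPLDLS cells that also overlapped both dox EVI1 lists. Of 40449 sites of both untreated libraries, 31593 were called in all 4 EVI1 libraries. The 757 sites shared no base with any of 7 CTBP2 peak lists of MUTZ3 and made up 2.40% of those 31593 sites, and the other 30836 carried CTBP2 in at least 1 list. The sites were thus chosen by measured peak calls in these 11 lists, so the presence of EVI1 and the absence of CTBP2 are the definition of the sites and not a result. Absence of CTBP2 means here that no peak was called, and the depth of each library is unknown because the lists hold no read counts.

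EVI1 is a zinc finger transcription factor encoded by MECOM, and its overexpression after rearrangement of chromosome band 3q26 drives an aggressive acute myeloid leukemia. CTBP2 does not read DNA itself. It is a corepressor that is brought to chromatin by factors carrying a short PLDLS-type motif, EVI1 among them, and it brings histone-modifying enzymes with it.

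MUTZ3 is a human acute myelomonocytic leukemia line with a 3q26 rearrangement. The inducible cells were a bulk MUTZ3 population carrying pCW-4xPLDLS, a construct that expresses 4 copies of the PLDLS motif when doxycycline (dox) is added, and EVI1 and CTBP2 were each profiled in 2 untreated and 2 dox libraries at 72 h. The remaining CTBP2 lists of MUTZ3 came from unmodified (WT) cells without treatment (1 library) and from cells transduced with retroviral p50MX-3xFLAG-3xNLS-4xPLASS-Zeo, the control in which the motif is mutated (2 libraries). Lists outside the choice were EVI1 in unmodified MUTZ3 and CTBP2 in untreated MOLM1, 1 library each. MOLM1 is a chronic myeloid leukemia line from blast crisis with high EVI1, here a clone with a dox-inducible short hairpin RNA against EVI1 that was not induced. The same EVI1 and the same CTBP2 antibody were used throughout, and all these libraries were crosslinked with DSG and formaldehyde except CTBP2 in unmodified MUTZ3, which had a single crosslink. The inducible experiment had 1 input per treatment.

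Sequences are shown for the strongest sites and for one EVI1 motif. The first 2 windows reach 100 bases to either side of the EVI1 summit of untreated replicate 1 at the 2 strongest sites, on the plus strand of hg19, with the 21 bases centred on the summit in capitals.
GRIN2B intron, chr12:14115711-14115911: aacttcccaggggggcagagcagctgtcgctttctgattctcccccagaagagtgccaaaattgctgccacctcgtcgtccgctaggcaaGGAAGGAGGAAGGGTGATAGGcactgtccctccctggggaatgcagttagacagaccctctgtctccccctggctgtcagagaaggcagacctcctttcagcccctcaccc
PGA3 upstream, chr11:60955076-60955276: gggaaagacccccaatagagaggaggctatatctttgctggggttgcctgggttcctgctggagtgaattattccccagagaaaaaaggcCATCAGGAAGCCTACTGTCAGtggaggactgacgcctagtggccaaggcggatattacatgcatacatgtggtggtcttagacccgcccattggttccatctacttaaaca
The next 4 stretches show the GATA-like EVI1 motif GACAAGATA, in capitals, with its flanks at 4 of the 14 sites that held it. They are given on the strand of the motif.
LARP1 upstream, chr5:154050558-154050618, plus strand: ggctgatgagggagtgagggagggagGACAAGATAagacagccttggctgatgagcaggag
PRKCA intron, chr17:64563362-64563422, plus strand: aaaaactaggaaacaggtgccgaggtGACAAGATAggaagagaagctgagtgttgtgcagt
CD33 upstream, chr19:51691223-51691283, minus strand: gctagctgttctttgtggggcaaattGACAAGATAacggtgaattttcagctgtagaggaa
BACH1 intron, chr21:30617653-30617713, minus strand: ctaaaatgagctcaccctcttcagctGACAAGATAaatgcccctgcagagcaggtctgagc

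The lists behind the choice differed widely in size. The EVI1 lists of the inducible cells held 47599 to 72214 peaks, the untreated CTBP2 lists 62232 and 56526, the dox CTBP2 lists 24588 and 23878, CTBP2 in unmodified cells 16836, and 4xPLASS 6688 and 31310. The list that alone excluded the most sites was CTBP2 of untreated replicate 1. It overlapped 94.2% of the 31593 EVI1 sites and was the only CTBP2 list with a peak at 2168 of them. Untreated replicate 2 overlapped 87.3% and was the only one at 347, and each of the other 5 was the only one at 1 to 78. Without untreated replicate 1, 2925 EVI1 sites had no CTBP2. Some shares and medians below, and the share of each motif, were also computed without that library. They are given without it only where stated, and values given once are not shown to hold without it. The named sites, gene lists and chromosome shares were not computed without it.

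The sites without CTBP2 were weaker EVI1 sites than those with it, and lay near the middle of the EVI1 lists. Peaks were ranked by fold enrichment, the ratio of signal at the summit to local background that the peak caller gives, and each rank was written as the percentile within its list. Each site took the value of its highest overlapping peak in a list, and a wider site can overlap more peaks. The part of width in the strength of the sites was not tested. The median percentile was 37.9 and 53.7 in untreated replicates 1 and 2, and 51.1 and 42.1 in dox replicates 1 and 2. At EVI1 sites with CTBP2 the same medians were 66.8, 77.8, 69.4 and 62.9, so all 4 libraries placed the sites without CTBP2 lower. Median fold enrichment was 5.28, 5.90, 5.86 and 5.24 in the same order, against 7.57, 9.73, 7.81 and 6.77 with CTBP2. After the 31593 sites were cut into 5 equal groups by their mean percentile over the 4 EVI1 libraries, the share without CTBP2 was 5.60% (354 of 6319) in the weakest group, 3.83% in the next, then 2.04%, 0.475%, and 0.0317% (2 of 6318) in the strongest. Counting-error intervals (Wilson, 95%) were 5.06% to 6.20% for the weakest and 0.00868% to 0.115% for the strongest. Sites are not replicates, and these intervals, like all others below, cover counting error only.

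The EVI1 rank of these sites was compared between dox and untreated libraries only as a description, since the choice kept only sites called in all 4 of those lists and thus left out any that lost or gained EVI1. The median percentile was 45.8 ± 11.2 (SD, n = 2) in untreated and 46.6 ± 6.35 (SD, n = 2) in dox libraries, a difference of 0.852 percentile points that was smaller than the spread between replicates (exact two-sided permutation test, p = 1.00, where 2 against 2 cannot go below 0.333). At EVI1 sites with CTBP2 the difference was -6.11 points (72.3 ± 7.80 to 66.2 ± 4.62, SD, n = 2, exact permutation test, p = 0.667).

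The sites were also narrow, with a median merged width of 436 bp (quartiles 367 and 548) against 825 bp (569 and 1210) with CTBP2. Without untreated replicate 1 of CTBP2 the medians were 543 bp against 850 bp. Width is tied to the choice, because a wider interval meets another peak more easily. Nearest to the limit of the choice, 6 sites had a CTBP2 peak of MUTZ3 within 50 bp, with a median mean percentile of 29.97 and a median width of 446 bp. Just across it, 10 sites overlapped CTBP2 in 1 list by at most 50 bp, with medians of 34.2 and 540 bp. Most sites were not at this edge. The gap to the nearest CTBP2 peak had a median of 3640 bp and quartiles of 1069 and 10326 bp, 113 sites (14.9%) lay within 500 bp of one, and 181 (23.9%) within 1000 bp. The gap to the nearest EVI1 site with CTBP2 had a median of 10256 bp.

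MOLM1 was used to ask whether CTBP2 was called at the same places in another EVI1-expressing line. A CTBP2 peak of MOLM1 overlapped 183 of the 757 sites, or 24.2% (95% interval 21.3% to 27.3%), beside 67.0% of all 31593 EVI1 sites and 68.1% (67.5% to 68.6%) of those with CTBP2 in MUTZ3. The difference was -43.9 percentage points (Newcombe 95% interval -46.8 to -40.7). It held within the 5 groups of EVI1 strength, at 21.8% against 52.3% in the weakest group, 23.6% against 60.01%, 31.0% against 67.6%, and 9 of 30 sites against 75.8% in the next to strongest. Weighting the sites with CTBP2 to the strength of those without gave 58.4%, and weighting them to their widths gave 58.3%. At sites whose only CTBP2 was in 1 of 7 lists, which were of similar strength (median mean percentile 43.9 against 44.96), the MOLM1 share was 34.7% (32.9% to 36.6%), and it rose list by list to 90.2% at sites with CTBP2 in all 7. Without untreated replicate 1 of CTBP2 the shares were 30.1% of 2925 sites and 70.8% of the rest. The sites with no CTBP2 peak called in MUTZ3 thus less often, but not never, had one called in MOLM1, and with 1 MOLM1 library no test across samples was possible.

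**Figure D1:**
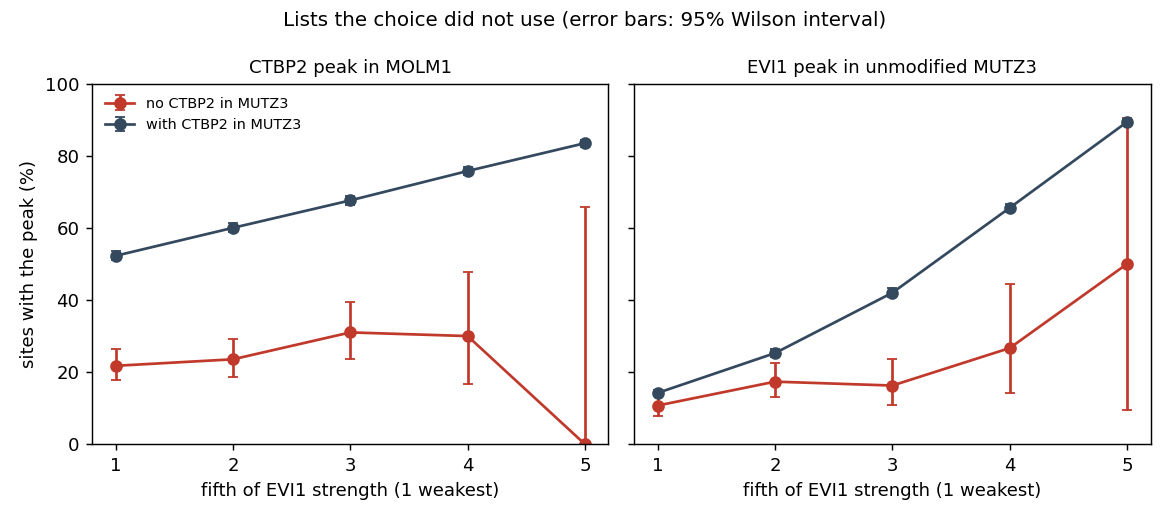
Share of EVI1 sites (vertical axis, percent) that overlapped a CTBP2 peak in MOLM1 (left) or an EVI1 peak in unmodified MUTZ3 (right), by group of EVI1 strength, with 95% Wilson intervals. The share with MOLM1 CTBP2 at sites without CTBP2 in MUTZ3 stays at 21.8% to 31.0% over the first 4 groups while the other sites run from 52.3% to 75.8%; the strongest group holds only 2 sites without CTBP2.

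Where MOLM1 did carry CTBP2, the peak was of middling strength. The distance between the MOLM1 CTBP2 summit and the EVI1 summit had a median of 46 bp, and 79.2% of the 183 summits lay within 100 bp, beside 66.9% at EVI1 sites with CTBP2. Only overlapping peaks were measured, and overlap with the narrower sites without CTBP2 (median 436 bp against 825 bp) brings summits closer by itself. Those peaks had a median fold enrichment of 6.80 (percentile 51.9 in the MOLM1 list), beside 8.26 (66.0) at the other sites.

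EVI1 itself was called less often in the independent library of unmodified MUTZ3. An EVI1 peak there overlapped 110 of the 757 sites, 14.5% (12.2% to 17.2%), beside 47.0% of all 31593 sites and 47.8% of those with CTBP2. The gap was smaller at matched strength. In the weakest group the shares were 10.7% and 14.2%, a difference of -3.50 points whose interval (-6.46 to 0.258) includes 0, and sites with CTBP2 weighted to the strength of those without gave 24.7%. In the middle group they parted further, 16.3% against 42.0%. At sites with CTBP2 in 1 of 7 lists the share was 14.9% (13.6% to 16.3%), an interval that lies within that of the sites without CTBP2. Both the EVI1 peak of unmodified MUTZ3 and the CTBP2 peak of MOLM1 were present at 33 of the 757 sites, and neither was at 497.

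**Figure D2:**
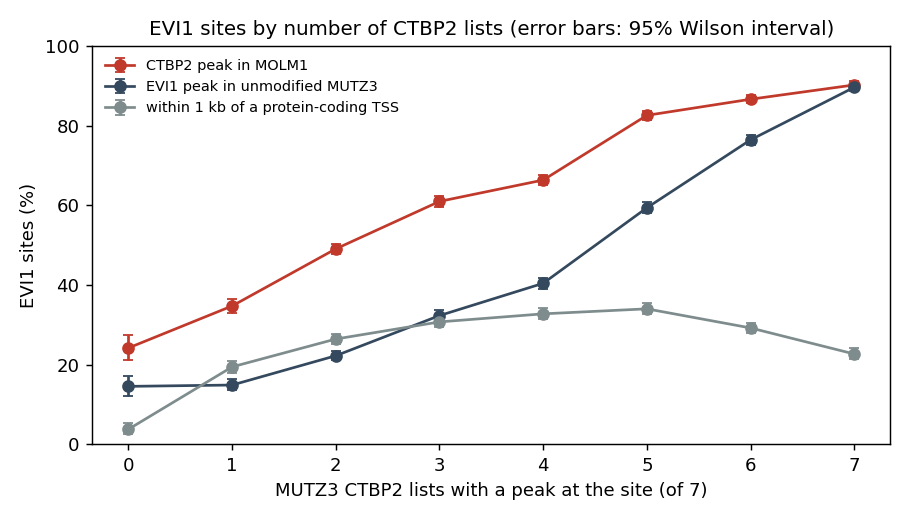
Shares of EVI1 sites (vertical axis, percent, with 95% Wilson intervals) by the number of MUTZ3 CTBP2 lists with a peak there, 0 being the 757 sites without CTBP2. The share with MOLM1 CTBP2 climbs from 24.2% at 0 lists to 90.2% at 7, EVI1 of unmodified MUTZ3 from 14.5% to 89.6%, and the share within 1 kb of a TSS is lowest at 0 lists, 3.77%.

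By position, the sites without CTBP2 were mostly away from promoters. Of the 716 on chromosomes 1 to 22, X and Y, 27 had their EVI1 summit no more than 1 kb from the start of a protein-coding gene (TSS), 3.77% (2.60% to 5.43%), beside 28.1% of all EVI1 sites and 28.7% of those with CTBP2. The share stayed at 4.34% or below in every group of strength, where sites with CTBP2 ran from 22.7% to 31.6%. At the far end, 152 (21.2%, 18.4% to 24.4%) lay over 100 kb from any such TSS, beside 12.9% of all EVI1 sites and 12.7% of those with CTBP2. The median distance was 33871 bp, against 11721 bp, and 16826 bp against 11673.5 bp without untreated replicate 1 of CTBP2. In the annotation, 343 summits were intergenic, 306 intronic and 67 exonic (9.36%, against 20.2% with CTBP2, and 17.1% against 20.2% without untreated replicate 1 of CTBP2). Counting starts of all annotated transcripts of any gene type, 18.6% lay within 1 kb of one, against 46.3%.

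This scarcity at start sites depended on width and on 1 CTBP2 library. Among EVI1 sites narrower than 400 bp it was 3.35% (1.77% to 6.24%) against 5.11% (4.24% to 6.16%), with overlapping intervals. The gap opened with width, to 3.51% against 10.8% from 400 bp to below 600 bp and 4.72% against 23.5% from 600 bp to below 900 bp, and sites with CTBP2 weighted to the widths of those without gave 11.9%. Leaving out untreated replicate 1 of CTBP2, 18.4% (17.0% to 19.9%) of the 2925 sites without CTBP2 lay within 1 kb of a TSS, against 29.0% of the rest. The share over 100 kb away was then 14.1% (12.8% to 15.4%) against 12.7% (12.3% to 13.1%), with overlapping intervals. Of the EVI1 sites where untreated replicate 1 had the only CTBP2 peak, 23.6% were at a TSS, while of those where untreated replicate 2 had the only one, 1.18% (4 of 339) were. Over the whole lists, 19.2% of the placed CTBP2 peaks of untreated replicate 1 and 19.9% of those of untreated replicate 2 lay within 1 kb of a TSS. The cause of the difference between these replicates at the sites covered by only 1 list was not tested.

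**Figure D3:**
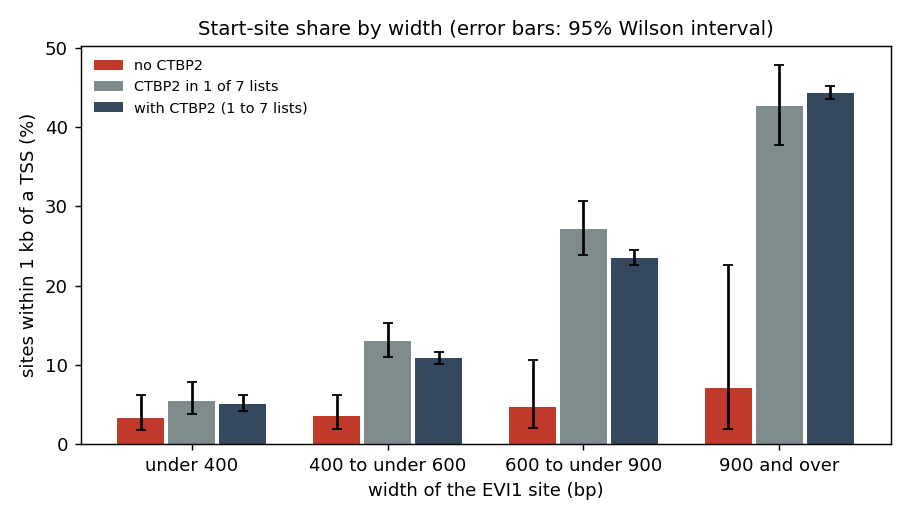
Share of EVI1 sites with the summit within 1 kb of a protein-coding TSS (vertical axis, percent, with 95% Wilson intervals) by width of the merged EVI1 site, for sites without CTBP2, with CTBP2 in 1 of 7 lists, and with CTBP2 in 1 to 7 lists. Sites without CTBP2 stay between 3.35% and 7.14% while the others climb from 5.11% to 44.3%; the widest class holds 28 sites without CTBP2.

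Among the strongest sites without CTBP2, the first in order of mean percentile (89.5) was in an intron of GRIN2B, which encodes a subunit of the NMDA-type glutamate receptor (ENSG00000273079, chr12:14115503-14116051). It lay 19.1 kb inside the gene, and the nearest CTBP2 peak of MUTZ3 was 222.6 kb away. Fold enrichment there was 9.38 and 20.3 in untreated replicates 1 and 2, and 15.8 and 16.4 in dox replicates 1 and 2. Only untreated replicate 1 was below the others. Neither CTBP2 in MOLM1 nor EVI1 in unmodified MUTZ3 had a peak there.

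The second site lay 15.6 kb upstream of the pepsinogen gene PGA3 (chr11:60954797-60955362, mean percentile 87.2). Its fold enrichment was 18.6 and 7.24 untreated and 15.1 and 21.1 with dox, so here untreated replicate 2 was the low one. EVI1 was called there in unmodified MUTZ3 and CTBP2 in MOLM1 was not. The third and the fourth in order were on haplotype copies of chromosome 6 and are only counted. The fifth was 42.7 kb upstream of TBL1X, which encodes a subunit of the NCoR/SMRT corepressor complex (chrX:9388505-9388944). Its 4 folds were close, at 10.6 and 13.7 untreated and 10.3 and 10.9 with dox.

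The other 7 of the 10 strongest placed sites had mean percentiles of 79.5 to 82.5. They lay in an exon of ECE1, with EIF4G3 the nearest start (chr1:21544403-21544854), in introns of TOGARAM2 (chr2:29244148-29244823, nearest start PCARE), KIF6 (chr6:39310472-39311560, nearest start KCNK16) and PPCDC (chr15:75368535-75369146), and between genes near SIK1 (chr21:44788905-44789355), YDJC (chr22:21978345-21978909) and CRYBA4. ECE1 encodes an endothelin-converting enzyme and SIK1 a salt-inducible kinase. In MOLM1, CTBP2 was called at ECE1 (fold enrichment 3.50), in KIF6 (9.05) and near YDJC (5.85). The next strongest with CTBP2 in MOLM1 were in an intron of TAFA5 (chr22:48888310-48888795, fold 7.18), 74.4 kb from the nearest MUTZ3 CTBP2 peak, and in an intron of SMIM35 near IL10RA, the interleukin 10 receptor gene (chr11:117877949-117878498, fold 5.45), only 271 bp from one.

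The 5 strongest sites within 1 kb of a TSS were weaker, at mean percentiles of 53.6 to 64.8, and a CTBP2 peak of MUTZ3 was within 3 kb of each. They were at H2AL3 (chrX:37853716-37854609), the histone H2B gene H2BC12 (chr6:27114181-27114675), the spliceosomal gene SNRNP40 (chr1:31769308-31769667), the glutathione peroxidase gene GPX3 (chr5:150399836-150400165) and the autophagy gene WDR45B (chr17:80606679-80607117). At H2BC12 the gap was 178 bp, at WDR45B 188 bp, at SNRNP40 405 bp, at GPX3 924 bp and at H2AL3 2722 bp. CTBP2 of MOLM1 was called at H2BC12, SNRNP40 and WDR45B.

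Of the strongest sites over 100 kb from a start site, 4 are named here, with mean percentiles of 70.6 to 75.6. One lay 360 kb from BCOR, which encodes a corepressor that partners BCL6 (chrX:39676113-39676808), with folds of 7.10 and 7.58 untreated and 13.2 and 10.4 with dox. It was 314 bp from a CTBP2 peak. Another was inside an intron of RUNX1, the core hematopoietic transcription factor (chr21:36315119-36315492), where the nearest gene start by the outermost annotated base was CLIC6 at 274 kb. EVI1 was called there in unmodified MUTZ3, and the folds were 6.72 and 10.9 untreated and 9.23 and 8.38 with dox. The others were between genes (chr4:180474674-180475068) and in an intron of CHST11 (chr12:104982918-104983260). For the first of these AGA was the nearest start, but 2111220 bp away, the largest such distance of the placed sites without CTBP2. In the same order, they belonged to the families of repeated sequence called C and A below.

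Of 34 genes in a list of blood cell transcription factors, 3 (ERG, ETV6 and MYC) were the nearest gene of a site without CTBP2, 8.82%, beside 3.31% of all 20149 protein-coding genes, and 33 were nearest to an EVI1 site with CTBP2 (97.1%, beside 65.0%). ETV6, an ETS-family repressor, had 2: a copy of the repeated sequence called family B below, 13.5 kb upstream, with folds of 8.61 and 6.14 untreated and 15.02 and 11.4 with dox, and a weak intronic one (mean percentile 27.5, chr12:11846523-11846855). Near ERG, an ETS factor of stem cells, the site 48.3 kb upstream (chr21:40081668-40082187) had folds of 8.58 and 5.68 untreated and 3.79 and 7.06 with dox, and the groups overlapped. It carried CTBP2 in MOLM1 (fold 8.99) and EVI1 in unmodified MUTZ3, as did the site 587 kb from MYC.

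The other lists held few. The CTBP corepressor complex list had 2 of 20 genes (BCOR and ZNF217), neutrophil and monocyte genes 2 of 22 (the receptors CSF2RA and CSF3R), blood growth factor receptors and stem cell surface genes 2 of 19 (CSF3R and CXCR4), lymphoid genes 1 of 20 (the kinase gene ZAP70), cytosolic ribosomal protein genes 4 of 78 (RPL13A, RPL15, RPLP0 and RPS15), and erythroid and megakaryocyte genes 0 of 20. In the same order, EVI1 sites with CTBP2 were nearest to 19, 15, 17, 15, 64 and 11 genes. Counts this low carry no statement on any list. Sites without CTBP2 were spread over 667 genes, of which 625 had 1, 35 had 2 and 7 had 3. Of the 667, 567 were also nearest to an EVI1 site with CTBP2, as were 65.0% of all protein-coding genes. The 7 genes with most sites were FBXL18, REXO1L1, RP11-685N3.1, RYBP, TRIM27, USP6NL and ZBED1, and all but REXO1L1 (0 sites) also had 4 to 18 EVI1 sites with CTBP2. Of the ZBED1 sites, 2 were the X and Y copies of a region the 2 chromosomes share, so the 3 are not 3 separate places.

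In sequence, the windows were lower in GC content and CpG than those with CTBP2 and held GATA-like motifs more often, and most of this changed when untreated replicate 1 of CTBP2 was left out. Windows reaching 100 bases to either side of the summit were read for 709 sites without and 30241 sites with CTBP2 on chromosomes 1 to 22 and X. Median GC content was 53.2% against 57.7%, and the median number of CpG was 3 against 6. Without that library the medians were 57.7% in both sets and 5 against 6. AGATAA, the GATA-like core of the EVI1 motif, was in 13.8% (98 windows, 11.5% to 16.6%) against 8.22% (7.92% to 8.54%), and in 8.35% of all windows. GACAAGATA, which overlaps AGATAA where an A follows it, was in 14 windows, 1.97% (1.18% to 3.29%), against 80, 0.265% (0.213% to 0.329%), and in 0.304% of all. GAAGATGAG, the motif of the second zinc finger domain, was in 1.55% (0.868% to 2.76%) against 0.651% (0.567% to 0.749%), and in 0.672% of all. Away from start sites by over 1 kb, the first of these became 13.9% against 9.97%, the second 2.05% against 0.329%, and the third 1.47% (0.798% to 2.68%) against 0.770% (0.662% to 0.896%), with overlapping intervals. Without untreated replicate 1 of CTBP2, AGATAA was in 8.63% (7.63% to 9.75%) of 2711 windows against 8.33% (8.01% to 8.65%), so that difference was lost. GACAAGATA was then in 0.848% (0.566% to 1.27%) against 0.251% (0.199% to 0.317%), and GAAGATGAG in 0.959% (0.655% to 1.40%) against 0.644% (0.558% to 0.745%), with overlapping intervals.

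Motifs of promoters, and a shorter ETS motif, were less frequent at the sites without CTBP2. GGGCGG, bound by SP1 and related factors, was in 8.18% (6.38% to 10.4%) against 27.9%, and in 7.48% against 18.0% away from start sites (27.4% of all windows). CCGGAAGT, an ETS motif of promoters, was in 0 of 709 windows, with an upper limit of 0.539%, against 2.45% (2.39% of all). Away from start sites it was in 0 of 682, with an upper limit of 0.560%, against 1.06% (0.934% to 1.21%). The shorter ETS motif AGGAAGT was in 11.4% (9.29% to 14.0%) against 15.3% (15.2% of all). Away from start sites its shares were 11.7% (9.53% to 14.4%) against 18.6% (18.1% to 19.2%), a wider gap. By group of EVI1 strength, AGGAAGT was in 10.4% (7.63% to 14.1%) against 11.7% in the weakest. It was in 12.2% (8.49% to 17.1%) against 13.1% in the next, and 12.3% (7.46% to 19.6%) against 14.9% in the middle group. Each of these intervals holds the share with CTBP2, so the lower share of AGGAAGT was not shown at matched strength. AGGNGGC (part of the CTCF motif) was in 24.7% (21.7% to 28.0%) against 29.3% (28.8% to 29.8%), and in 29.2% of all. The other 3 motifs were TGTGGT (RUNX) at 22.3% against 19.0% (19.1% of all), TGAGTCA (AP-1) at 5.64% against 5.03% (5.04%) and CACCTG (E-box) at 17.2% against 18.6% (18.6%). For TGTGGT the shares away from start sites were 23.2% and 23.5%. Without untreated replicate 1 of CTBP2, GGGCGG was in 21.4% (19.9% to 22.98%) against 28.0%, CCGGAAGT in 0.959% against 2.53% and AGGAAGT in 9.55% against 15.7%, still less frequent. The other 4 changed direction, with AGGNGGC at 30.8% (29.1% to 32.6%) against 29.1% (28.5% to 29.6%), TGTGGT at 16.5% against 19.3% and TGAGTCA at 4.54% against 5.09%, and CACCTG at 20.1% against 18.4%. All motifs were searched on both strands, and a match is a run of letters and not a shown binding site.

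The 14 sites with GACAAGATA had mean percentiles of 32.5 to 64.0, and EVI1 was called in unmodified MUTZ3 at 4 of them and CTBP2 in MOLM1 at 2. The 4 printed above lay 11.9 kb upstream of LARP1, 264.7 kb inside PRKCA, a protein kinase C gene, 37.1 kb upstream of the myeloid surface receptor gene CD33, and 51.2 kb downstream of the start of BACH1, a heme-responsive transcription factor. Those at PRKCA and CD33 were the 2 with CTBP2 in MOLM1.

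Some of the sites shared repeated sequence. The 709 windows were aligned with each other and with all 30241 windows with CTBP2 (BLAST, E value up to 1e-5 over at least 60 bp), and families were built around the window without CTBP2 that matched most other windows without CTBP2. Only sites without CTBP2 could start a family, and the families were made after the windows had been seen, so a high share without CTBP2 is in part fixed by the choice. The shares are given as a description and nothing is read from them against the rest. Together 5 families held 87 of the 709 windows. The share without CTBP2 over all windows was 2.29%. In family A it was 7.19% (31 of 431), and 16 of these 31 windows held the run CCACTGCACTCCAGCCTG that is part of Alu repeats. In family B it was 55.6% (25 of 45), in family C 11.7% (19 of 163), in family D 2.89% (7 of 242) and in family E 7.25% (5 of 69). Without untreated replicate 1 of CTBP2 the counts were 79, 27, 24, 27 and 23 in the same order, and the share over all windows was 8.76%.

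The 25 family B sites without CTBP2 lay on 13 chromosomes, 13 between genes and 12 in introns, with none within 1 kb of a TSS, and 2 of them, near HEATR6 and CA4 on chromosome 17, shared a run of at least 150 bases and were copies of one stretch. Of the other 20 family B windows, 4 had CTBP2 in 1 list and 2 in all 7. Those with CTBP2 were stronger EVI1 sites (median of the mean percentile 68.2 against 51.6). Within the 5 groups of strength the share without CTBP2 fell from 11 of 13 in the weakest to 4 of 7, 7 of 13, 3 of 8 and 0 of 4. CTBP2 in MOLM1 was called at 1 of the 25 and 7 of the 20, and EVI1 in unmodified MUTZ3 at 1 and 10. The strongest family B sites without CTBP2 were near CRYBA4 (mean percentile 80.4), ETV6 (77.2) and TOGARAM2 (77.1), and among the others were sites near TOMM22, SMAD2, MAP3K8 and PREX1.

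In family C, 12 of the 19 windows without CTBP2 shared a run of at least 150 bases with another of them, and 2 had the same bases throughout the window. CTBP2 in MOLM1 and EVI1 in unmodified MUTZ3 were called at 0 of these 19, beside 45 (31.3%) and 58 (40.3%) of the 144 with CTBP2. How the authors treated reads that align to several places is not given in the sources used here, nor is whether this differed between the lists. On haplotype copies of chromosomes, which duplicate other sequence, the inducible libraries had 176 to 1186 peaks each, MOLM1 had 2, and the unmodified and 4xPLASS libraries had 0. There were 35 sites without CTBP2 on haplotype copies (4.62%, against 1.45% of sites with CTBP2 and 5.82% of those with it in 1 list) and 8 in the part of chromosome 6 they duplicate. Without untreated replicate 1 of CTBP2 the share on haplotype copies was 6.32%, against 1.04% of the rest. The part of the difference between lists in haplotype peaks in the results on repeats was not tested. Outside the 5 families and on chromosomes 1 to 22 and X, the share with MOLM1 CTBP2 was 28.3% (176 of 622) against 69.9%, with EVI1 in unmodified MUTZ3 16.7% against 49.1%, and within 1 kb of a TSS 4.34% against 29.4%. Outside them AGATAA was in 13.7% against 7.99%, and GACAAGATA in 2.09% against 0.262%.

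Over the chromosomes, the share without CTBP2 was between 1.83% (10 of 546 on chromosome 13) and 3.71% (36 of 970, 2.69% to 5.10%, on chromosome 20) for chromosomes 1 to 22 and X. On chromosome Y it was higher, 7.07% (7 of 99, 3.47% to 13.9%). The Y sites include the ZBED1 copy in the region shared with chromosome X, and the treatment of reads that align to several places is not given.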

How the data were processed

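ChIP-seq peak lists of 13 libraries were used, each a peak caller's table with the fold enrichment (a ratio), the −log10 p, the −log10 q and the summit of every peak. The authors aligned reads to hg19 with Bowtie (version 1.1.1) and called peaks per library with MACS2 (version 2.1.2 in the submitters' processing notes) under default settings against an input. The deposited fold enrichment ratio is signal over local background at the summit, and its significance was deposited as −log10 of p and of q. No read counts were in the lists, so depth is unknown, and the display score was not used. The number of peaks limits what each list can show.

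Intervals overlapped when they shared at least 1 bp. Nearest genes came from the outermost start of 20149 protein-coding gene symbols in GENCODE release 44 mapped to GRCh37, and sequence from the GRCh37 genome, which is hg19. Windows were aligned with blastn 2.17.0, and tables were made with Python 3.11.15, numpy 2.4.6, pandas 2.3.3 and pysam 0.24.0. Intervals were Wilson and, for differences, Newcombe, at 95%. The overlap code was tested on simulated lists. Dox was compared with untreated by an exact permutation test over libraries.

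The sites, the motifs and the gene lists were chosen with earlier results of these data known. Sites were named by mean percentile over the 4 EVI1 lists: the 10 strongest, the 5 strongest within 1 kb of a TSS, over 100 kb from one, with and without CTBP2 in MOLM1, the genes with most sites (7 tied at 3), and every blood cell transcription factor nearest to a site. Sites on haplotype or unplaced sequences were counted and not named. Family B sites, the sites with GACAAGATA and those of the other gene lists were named after their values were seen. Whether replicates of the inducible cells were separate cultures is not given in the sources used here, so spreads between them may be technical. The EVI1 library of MOLM1 was not analysed here. Some named sites and sequences are not reported here.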

Additional observations from a re-analysis of the deposited data

How the results depend on the processing

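The number of sites without CTBP2 stayed within 1.5 times of that with a 50% overlap, a 500 bp margin, the 4 inducible or the 2 untreated CTBP2 lists alone, and chromosomes 1 to 22 and X alone. It became 1750 with CTBP2 peaks of −log10 q of at least 5 and 348 with EVI1 peaks of at least 5. Leaving out 1 library at a time it ran from 758 to 2925, and passed 1.5 times the count without CTBP2 untreated replicate 1 (2925), EVI1 untreated replicate 1 (1414) or EVI1 dox replicate 2 (1335). The share with an EVI1 peak in unmodified MUTZ3 (14.5%) became 20.4% with the EVI1 threshold and 19.2% with the 2 untreated CTBP2 lists, and ran from 10.0% to 16.8% when a library was left out. The share with CTBP2 in MOLM1 (24.2%) became 30.5% with the CTBP2 threshold, 29.6% with the EVI1 threshold, 28.0% with the 4 inducible and 28.8% with the 2 untreated CTBP2 lists, and 28.3% outside the 5 families, and ran from 19.0% to 30.8% when a library was left out. The share within 1 kb of a TSS (3.77%) became 1.98% with a 500 bp margin and 6.95% with the CTBP2 threshold, and ran from 2.94% to 18.4% when a library was left out, the highest without CTBP2 untreated replicate 1. The cause of these moves was not tested.

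The change of EVI1 rank with dox (0.852 points) was -1.83 points when peaks were ranked by −log10 p, and it ran from -4.97 to 10.6 points when a library was left out, with -4.71 without CTBP2 untreated replicate 1, -0.0530 without CTBP2 untreated replicate 2, -1.003 without EVI1 untreated replicate 1, -4.97 without EVI1 dox replicate 1 and -0.00442 without EVI1 dox replicate 2. No setting gave an exact permutation p below 0.333, which says nothing about stability in a design this small. With the replicate number as a block the value was 0.852 again (exact sign-flip test, p = 1.00). The differences between replicates 1 and 2 correlated across the sites at -0.0656 between untreated and dox and at -0.164 over all 31593 EVI1 sites, and the pairing crossed after this was seen also made 0 calls. The samples share only a number, and nothing in the labels pairs them. In windows reaching 200 bases to either side AGATAA was in 20.6% (14.0% with CTBP2) and GGGCGG in 13.1% (41.1%), and the summit of untreated replicate 2 moved no share out of its interval. Without CTBP2 untreated replicate 1, a setting added after seeing the data, AGATAA was in 8.63%, GACAAGATA in 0.848% and GGGCGG in 21.4%.

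The family B share (25 of 45) ran from 22 to 27 of 45 under the CTBP2 settings and was 55.6% and 57.6% under other BLAST limits, all added after seeing the data, and it was 15 of 45 (33.3%) with the EVI1 threshold, which each site then had to pass in all 4 EVI1 lists.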
